A study of Mus musculus with 16 samples.

Results

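The 37 genes described here carry out glycolysis or belong to the transcriptional response to low oxygen. They were set as a list of symbols by gene function, with earlier results of these data known, and all 37 were found among the 24421 gene symbols of the count tables. Glycolysis turns glucose into pyruvate in the cytosol and yields ATP without oxygen. When oxygen falls, prolyl hydroxylases slow, the protein encoded by Hif1a persists, and it binds a short DNA motif near genes for glycolytic enzymes, glucose uptake, mitophagy and vessel growth. Activated macrophages also raise glycolysis through the same factor, so that its targets can move for reasons other than oxygen.

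The samples came from a study of how long myeloid cells had been in a tumour. MC38-Ova colon adenocarcinoma cells, which express ovalbumin, were grown under the skin of untreated Kaede transgenic C57BL/6 mice, female and 8 to 14 weeks old. Violet light on day 13 turned the Kaede protein of host cells then in the tumour from green to red, so that Kaede-red cells had been there at photoconversion and Kaede-green cells had entered since. CD11b+ cells, gated as live, CD45+, TER119-, Kaede+ and NK1.1-, were sorted 24h or 72h later. The 4 groups shared this genotype, strain, age range and lack of treatment, and each held 4 libraries: Kaede-green 24h, Kaede-red 24h, Kaede-green 72h and Kaede-red 72h, written below as green and red. All were total RNA libraries from 5 ng of RNA, prepared in 1 batch.

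Libraries held 3216858 to 15423085 counts, most of them from the ribosomal RNA gene Rn45s. Its share was 90.6 ± 2.93% (mean ± SD) in green and 75.6 ± 9.76% in red libraries at 24h. The 4 red libraries at 24h were uneven, at 66.2, 68.2, 83.1 and 84.9% in replicate order. At 72h the shares were 86.5 ± 5.21% and 66.5 ± 7.80%. Over both times the share was 17.5 percentage points lower in red libraries (mean difference -17.5, exact permutation p = 0.000408, n = 8 and 8). Counts outside Rn45s were higher in red libraries by 1.58 on the log2 scale (exact permutation p = 0.000816, n = 8 and 8). Members therefore rested on 2115 to 3943 counts in a green library and on 4980 to 51331 in a red library, with 35 to 37 members detected in each. Colour and Rn45s share moved together, and whether RNA quality or amount shaped any difference between the colours was not tested. With the share added to the model as a covariate, edgeR called no member between the colours at either time or over both. Most calls among all 9642 genes were lost as well, so the absence of calls is not particular to the members. The covariate left 156 genes called over both times (1959 without it), 206 at 24h (723) and 101 at 72h (1622). Of the 16 calls between the colours, 3 kept their size within 1.5 times: Bnip3 at 72h (-0.978, edgeR adjusted p = 0.164) and over both times (-0.493, 0.491), and Pdk1 at 24h (1.17, 0.212). The other 13 shrank by more or, for Gapdh over both times, turned. Over both times Aldoa stood at 0.305, Pdk1 at 0.474, Higd1a at -0.344, Vegfa at -0.374 and Ankrd37 at -0.152 (edgeR adjusted p from 0.664 to 0.956). At 72h Aldoa stood at 0.413, Gapdh at 0.171, Higd1a at -0.583, Vegfa at -0.642 and Ankrd37 at -0.637 (edgeR adjusted p from 0.54 to 0.942). Most calls between the colours thus lost much of their size once the share was in the model.

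The label of CD11b+ macrophages was checked against fixed marker lists. The 10 macrophage and monocyte markers summed to 2010 ± 623 and 1100 ± 233 CPM in green and red libraries at 24h, and to 1580 ± 199 and 1620 ± 192 CPM at 72h. Lyz2, a lysozyme gene, was the most abundant of them in each group, and none of the 10 was at 0. The sums hide a split by colour. Over both times Lyz2 fell by 1.245 on the log2 scale in red cells (edgeR adjusted p = 1.97e-05). In the other direction, 5 markers were called higher, from 0.436 for Itgam to 1.526 for Adgre1, with Mertk, Cd68 and Csf1r between them. This difference in macrophage markers moved with the colours as the members did, and whether it accounts for any member's difference was not tested. Neutrophil markers, of which 12 of 13 were in the table, summed to 11.8 to 12.3 CPM in 3 groups and to 21.9 CPM in red cells at 72h, mostly from Csf3r, and Ngp had no counts. Csf3r, a receptor also found on monocytes, was called higher in red cells at 72h (1.12, edgeR adjusted p = 0.000941), over both times (0.67, 0.00566) and with time (1.005, 0.00431). S100a8 and S100a9 ran the other way at 72h, at 1.11 and 1.15 CPM in green and 0.172 and 0.318 in red cells, on 58 and 73 counts in all. The neutrophil markers thus did not move together, and whether neutrophils contributed to any member's difference was not tested. Markers of tumour epithelial cells (10 genes, most abundant Cdh1) reached at most 1.86 CPM in a group mean, T and NK cell markers 2.91 CPM, B cell markers 1.18 CPM and dendritic cell markers 4.24 CPM. Of these, Cd4 (2.46, edgeR adjusted p = 0.0469) and Ccr7 (4.525, edgeR adjusted p = 0.000403) were called higher in red cells over both times, on 155 and 292 counts in all. The libraries thus held the transcripts of the labelled cell type, with few from the lymphocyte and tumour epithelial marker lists. Whether the tumour cells used express those epithelial markers was not tested. In bulk samples, fewer cells of a type and less RNA per cell cannot be told apart.

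Of the 37 members, 35 passed the expression filter and were tested among 9642 genes. Pfkm, a muscle phosphofructokinase, had 0 to 33 counts per library, and Adm, the peptide hormone adrenomedullin, 0 to 10, so neither was tested. Over both times, 3 members were called higher in red cells (8.57%, against 10% of all genes) and 4 lower (11.4%, against 10.3%). The share near that of all genes is not a result about the members, which are described by name below. At 24h, 1 member was called higher (2.86%, against 3.22% of all genes). No member was called lower at 24h by edgeR's quasi-likelihood test, against 4.28% of all genes, where 2 had unadjusted p under 0.05 and DESeq2 called 1. At 72h, 4 were called higher (11.4%, against 8.06%) and 4 lower (11.4%, against 8.76%). All called members were glycolytic enzymes or a kinase of pyruvate entry when higher, and mitochondrial, secreted or stress genes when lower.

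Left-out libraries moved some of these counts. Over both times, the count called higher was 7 without green 24h replicate 2, where 1031 of 10168 genes were called higher. It was 6 without red 24h replicate 3 and 5 without green 72h replicate 4. At 24h, 2 were called higher without green 24h replicate 2 and 1 was called lower without green 24h replicate 4. At 72h, 2 rather than 4 were called higher without green 72h replicate 2, green 72h replicate 3 or red 72h replicate 1. The counts of members called lower stayed at 4 or 5 both at 72h and over both times. Of all genes in fits without 1 library, 747 to 1031 were called higher and 831 to 1064 lower over both times. At 24h these ranges were 194 to 316 and 296 to 509, and at 72h 517 to 881 and 629 to 1029. Scaling by totals outside Rn45s, Lars2 and Mir6236, 3 genes that collect ribosomal reads, moved the median of all genes by 0.20 over both times, and its split of all genes was 1920 higher and 621 lower, beside 969 and 990. Under that scaling 13 members were called higher over both times, 37.1% against 19.9% of all genes. Without the expression filter 7 members were called higher over both times, beside 1231 of 21040 genes. The nearness of the 2 shares thus depends on the scaling, on the filter and on the libraries kept.

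No called member had all 8 red libraries apart from all 8 green libraries over both times. Within a time, libraries of the 2 colours did not overlap for 1 member higher and 1 lower at 24h (2.86% each, against 7.09% and 5.43% of all genes). At 72h this held for 8 members higher and 6 lower (22.9% and 17.1%, against 13% and 9.52%). The 8 were Hk1, Gpi1, Aldoa, Gapdh, Eno1, Pkm, Pfkfb3 and Hif1a, and the 6 were Bnip3, Higd1a, P4ha2, Vegfa, Ankrd37 and Ddit4. More members had the colours apart at 72h than at 24h, as did all genes, and whether this changed with time was not tested.

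**Figure D1:**
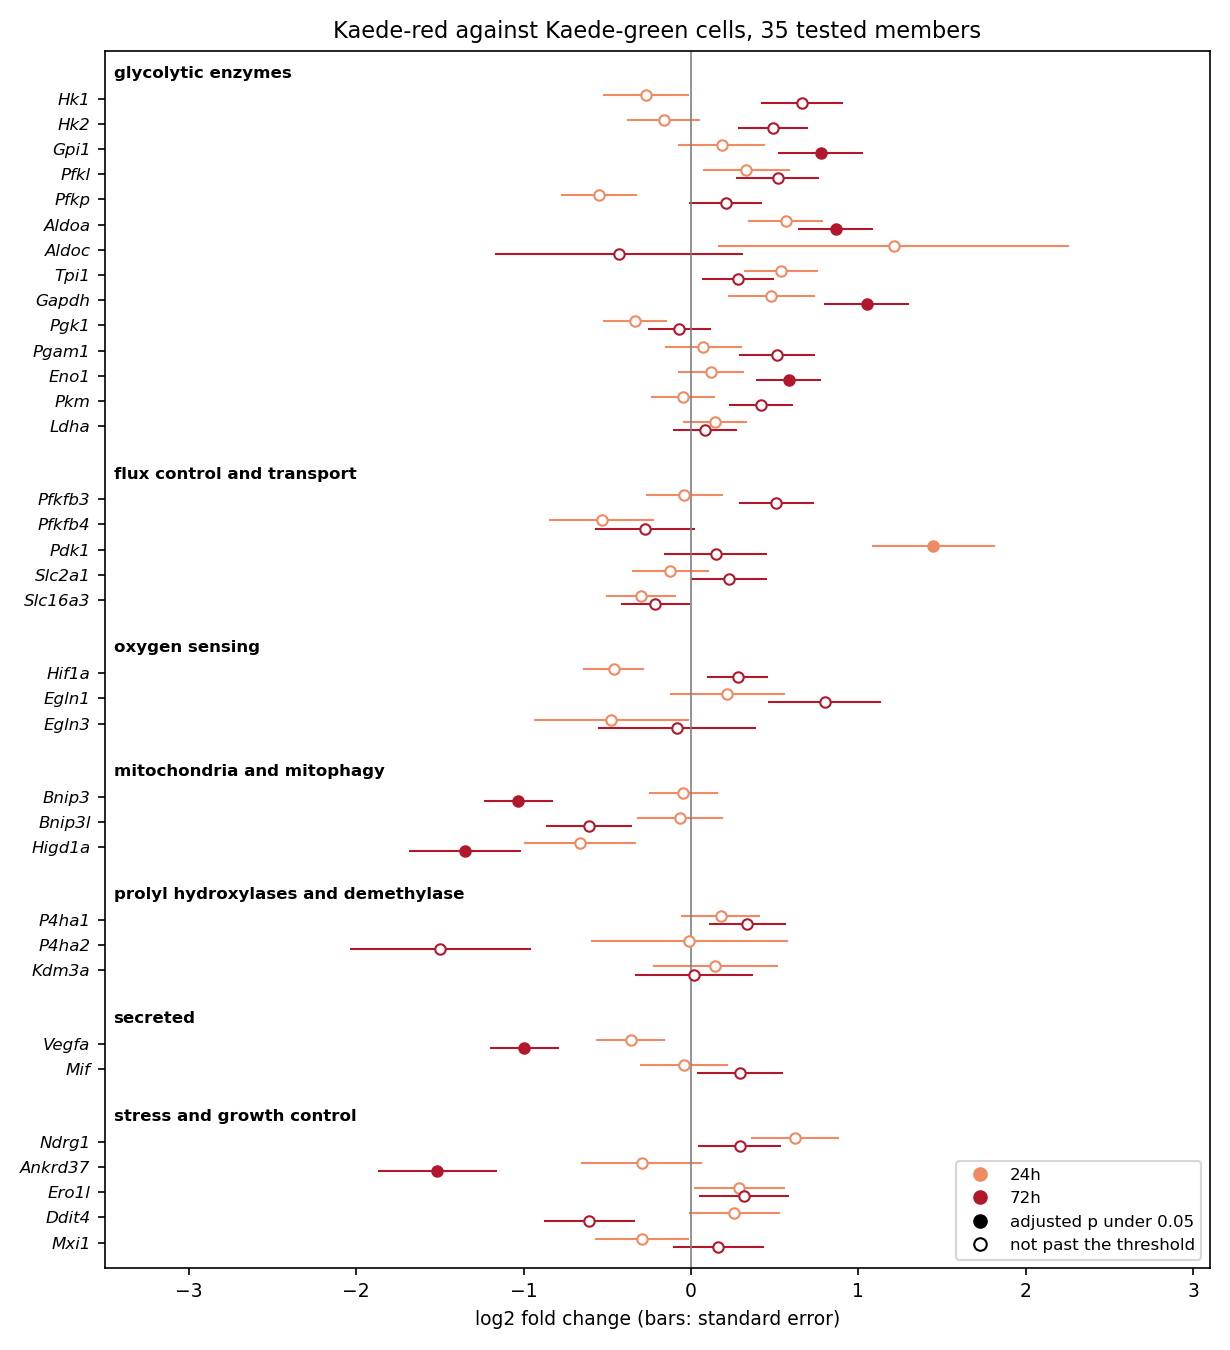
Log2 fold change of each tested member in red against green cells at 24h and at 72h, with standard errors, grouped by role.

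The 35 members with a promoter entry were read for the core motif of hypoxia-inducible factors. ACGTG, on either strand within 250 bases before and 50 after a start, was present for 26 of these 35 genes (74.3%) and for 5886 of 27025 genes of the annotation (21.8%). With GCGTG allowed as well, the numbers were 33 (94.3%) and 12628 (46.7%). Many members are in the list because they are known targets of these factors, and a motif match describes sequence alone, not binding. Sequences of 190 bases just before the start are given for 7 members, chosen after their values were seen: those with large differences below, and Ldha, which did not differ. They are from RefSeq, build GRCm38.p6, read on the gene's own strand, with capitals for either motif on either strand. Bnip3 lies on the minus strand at chr7:138909507-138909696, with ACGTG 107 bases before the start on its own strand and 108 on the other. Ankrd37 is on the minus strand at chr8:45999851-46000040 and has ACGTG 6 bases before the start. Higd1a is on the minus strand at chr9:121857797-121857986 with GCGTG alone in the bases shown, and ACGTG elsewhere in the wider window. Ddit4 is on the minus strand at chr10:59951771-59951960 with ACGTG 187 bases before the start. Pdk1 is on the plus strand at chr2:71873034-71873223 with GCGTG 78 bases before the start. Gapdh is on the minus strand at chr6:125165774-125165963 with GCGTG only in the bases shown. Ldha is on the plus strand at chr7:46845614-46845803 with ACGTG at 3 places.
Bnip3: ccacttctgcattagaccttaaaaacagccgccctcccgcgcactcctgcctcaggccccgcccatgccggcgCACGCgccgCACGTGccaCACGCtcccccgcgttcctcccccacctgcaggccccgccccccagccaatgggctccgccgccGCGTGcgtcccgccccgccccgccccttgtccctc
Ankrd37: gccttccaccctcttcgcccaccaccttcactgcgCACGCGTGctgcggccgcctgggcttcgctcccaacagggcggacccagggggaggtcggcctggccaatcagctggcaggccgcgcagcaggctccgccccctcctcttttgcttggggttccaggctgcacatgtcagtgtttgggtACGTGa
Higd1a: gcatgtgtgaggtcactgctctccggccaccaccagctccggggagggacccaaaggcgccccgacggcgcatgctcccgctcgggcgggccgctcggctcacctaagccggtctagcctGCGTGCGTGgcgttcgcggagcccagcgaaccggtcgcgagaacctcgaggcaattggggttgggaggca
Ddit4: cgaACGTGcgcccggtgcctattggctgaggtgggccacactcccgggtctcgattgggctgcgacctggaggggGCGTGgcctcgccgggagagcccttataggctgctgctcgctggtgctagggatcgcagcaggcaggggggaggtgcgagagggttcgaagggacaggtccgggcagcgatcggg
Pdk1: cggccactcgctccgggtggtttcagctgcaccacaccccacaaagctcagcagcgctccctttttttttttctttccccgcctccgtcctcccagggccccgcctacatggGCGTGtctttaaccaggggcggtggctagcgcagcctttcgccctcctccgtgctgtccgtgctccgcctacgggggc
Gapdh: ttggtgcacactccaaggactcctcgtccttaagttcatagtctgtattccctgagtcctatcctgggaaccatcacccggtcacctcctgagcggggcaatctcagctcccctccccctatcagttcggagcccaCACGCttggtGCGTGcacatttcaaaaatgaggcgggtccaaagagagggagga
Ldha: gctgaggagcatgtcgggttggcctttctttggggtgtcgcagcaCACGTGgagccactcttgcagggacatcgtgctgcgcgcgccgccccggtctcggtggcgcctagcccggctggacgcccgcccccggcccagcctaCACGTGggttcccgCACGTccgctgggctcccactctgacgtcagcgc

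Members differed widely in level. Per kb of exon and averaged over the 16 libraries, Pkm, which makes pyruvate, stood highest at 66.6 CPM. Ldha, which turns pyruvate into lactate, followed at 49.1, Eno1, an enolase, at 43.5 and Pgk1, a phosphoglycerate kinase, at 40.7. The order below Pkm differed by colour. Pgk1 stood above Eno1 in green cells (43.7 and 38.0), and Aldoa above Pgk1 in red cells (47.5 and 37.7). Outside the glycolytic enzymes, Bnip3, a mitophagy receptor, led in green cells at 23.9. With both times pooled, Mif led in red cells at 19.3, where Bnip3 stood at 17.9. By time, Bnip3 led in red cells at 24h and Mif at 72h. Before division by length, Bnip3 stood there at 46.9 and 19.6 CPM and Mif at 10.8 and 10.1. At the other end, per kb over all libraries, Pdk1 stood at 0.907, Aldoc, a second aldolase, at 0.282 and Adm at 0.226. The upper end of the list was thus held by glycolytic enzymes. Eno1 is less certain than its level implies, since Eno1b, an intronless copy of it, carried 1.06 to 1.56 counts per Eno1 count in each library.

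**Figure D2:**
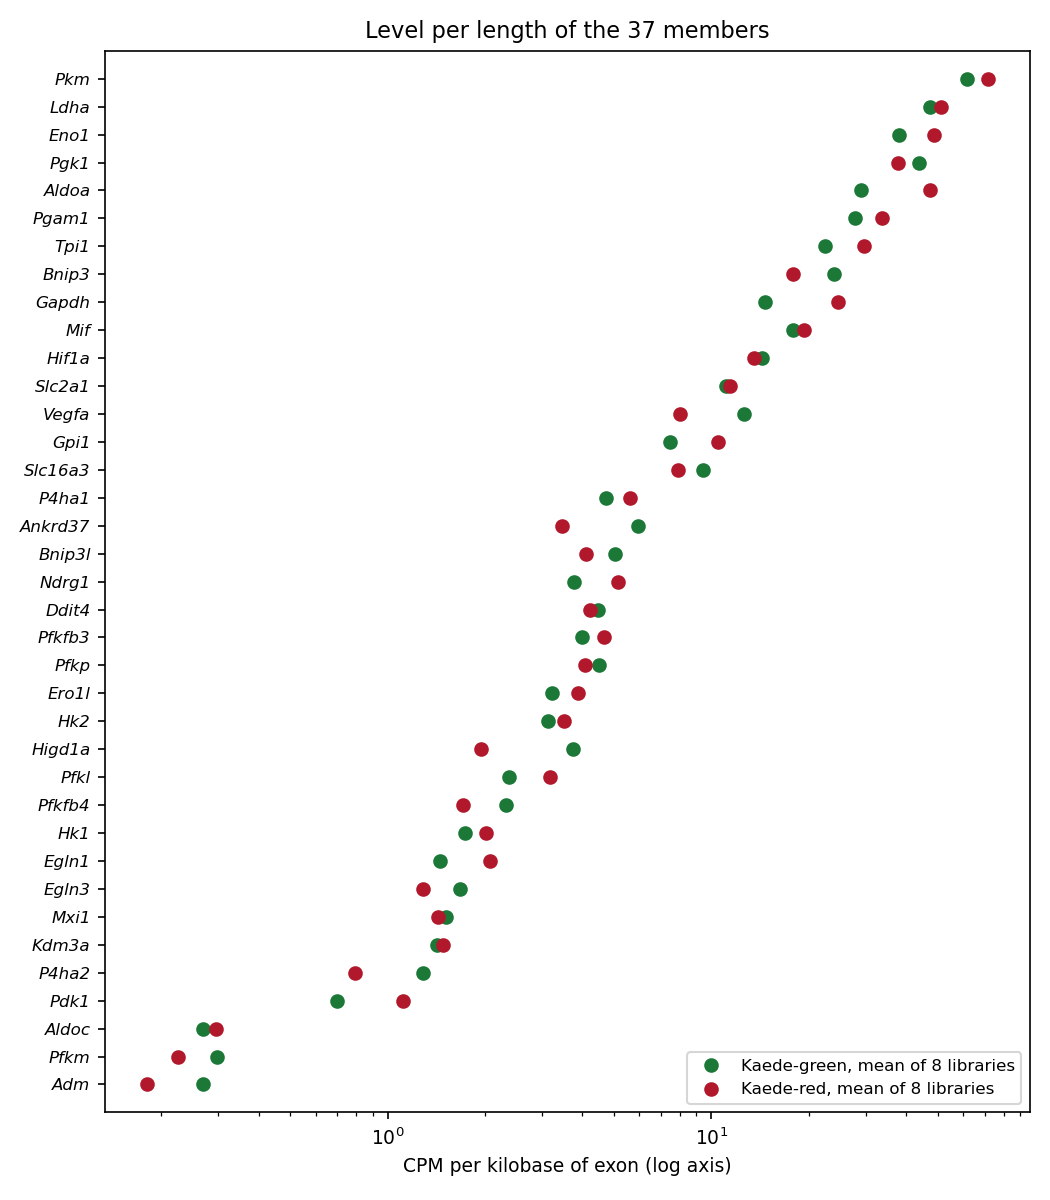
Mean CPM per kb of exon of each member in green and in red cells, each over 8 libraries with both times pooled.

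No member met the rule set beforehand for giving values in every library, so the members below were chosen for that after their values were seen: each one called in any comparison, and Hif1a. Values are CPM in replicate order. Aldoa encodes the main aldolase, which splits fructose bisphosphate. Its 24h libraries stood at 60.8, 80.3, 46.6 and 37.2 in green cells and at 102, 95.6, 59.3 and 74.6 in red cells. The 72h libraries stood at 47.2, 38.2, 53 and 60.3 in green and at 113, 90.3, 83.6 and 75.6 in red cells. Red cells were the higher at both times, with overlap at 24h and none at 72h. The log2 fold change over both times was 0.72 (SE 0.158, edgeR adjusted p = 0.00115). At 72h it was 0.86 (SE 0.223, edgeR adjusted p = 0.00605), and at 24h 0.57 without a call (edgeR adjusted p = 0.129). Aldoa was called higher at 24h in 3 alternatives: by totals (0.801, edgeR adjusted p = 0.013), with at least 10 counts (0.687, 0.0276) and without green 24h replicate 2 (0.789, 0.0377).

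Gapdh, the glyceraldehyde phosphate dehydrogenase, moved the same way. Its CPM at 24h was 25.1, 38.1, 13.3 and 22.1 in green and 41.5, 43.2, 24.1 and 26.6 in red cells. By 72h its values were 19, 15.9, 19.5 and 22.9 in green and 37.7, 30.7, 36.6 and 55.2 in red cells. Every red library at 72h lay above every green one, while the 24h ranges overlapped. Gapdh was higher in red cells by 0.77 over both times (log2, SE 0.181, edgeR adjusted p = 0.00228) and by 1.05 at 72h (SE 0.254, edgeR adjusted p = 0.00344). Its value over both times turned to -0.01 with the Rn45s share as a covariate (edgeR adjusted p = 0.993).

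Gpi1, which turns glucose phosphate into fructose phosphate, was called at 72h only in the fit described. Its CPM was 17.8, 33.6, 20.4 and 18.4 in green and 36.1, 28.3, 13.4 and 24.1 in red cells at 24h. At 72h it was 23.4, 13.7, 17.8 and 26.5 and 43.7, 30.5, 31.6 and 33.4 in the same order. The 24h ranges overlapped broadly, and at 72h the lowest red library stood above the highest green one. The 72h log2 fold change was 0.775 (SE 0.253, edgeR adjusted p = 0.0311). This call was lost without green 72h replicate 2 (edgeR adjusted p = 0.149), green 72h replicate 3 (0.105) or red 72h replicate 1 (0.125), under DESeq2 (0.0541), with thinned red counts (0.0553) and with offsets for gene length and GC (0.563, adjusted p = 0.1). With the Rn45s covariate the value fell to 0.152 (edgeR adjusted p = 0.959). Over both times Gpi1 was called higher in 6 alternatives (0.54 to 0.683), 3 of them fits without 1 library.

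Eno1 was the fourth glycolytic enzyme called at 72h. Its CPM at 24h was 94.8, 117, 90.5 and 92 in green and 133, 117, 81.8 and 97.2 in red cells. At 72h it was 103, 84, 90.5 and 101 in green and 186, 136, 130 and 117 in red cells. All 4 red libraries at 72h exceeded the green ones, which the 24h libraries did not do. The 72h log2 fold change of 0.585 (SE 0.194, edgeR adjusted p = 0.0347) was the smallest of the 8 calls at 72h. Without 1 library it was lost in 4 cases: green 72h replicate 2 (edgeR adjusted p = 0.123), green 72h replicate 3 (0.0948), red 72h replicate 1 (0.187) and red 72h replicate 2 (0.0569). It was also lost with offsets for gene length and GC, where the value was 0.272 (edgeR adjusted p = 0.336), and with RLE factors (0.0503). With the Rn45s covariate it stood at 0.341 (edgeR adjusted p = 0.805). Over both times Eno1 was called higher in 5 alternatives (0.328 to 0.549), DESeq2 among them (adjusted p = 0.0433).

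The other tested glycolytic enzymes gave no call in the fit described. At 72h, 12 of the 14 tested had a log2 fold change above 0 in red cells, with a median of 0.501, against 0.035 over all genes. At 24h, 9 of 14 were above 0 with a median of 0.132. Hk1, a hexokinase, stood at 0.66 at 72h (edgeR adjusted p = 0.0585). Hk3, a hexokinase outside the members, was called higher there (0.684, edgeR adjusted p = 0.0287). Pkm stood at 0.42 (edgeR adjusted p = 0.133) with no overlap of the libraries. Ldha, among the most abundant members, differed by 0.11 over both times (edgeR adjusted p = 0.603). Tpi1, a triose phosphate isomerase, stood at 0.41 over both times (edgeR adjusted p = 0.0552), and Pgk1 at -0.20 (edgeR adjusted p = 0.306). Hk2, Pfkl, Pfkp, Pgam1 and Aldoc were not called in any comparison. Several of these enzymes were called higher in red cells under an alternative, with Tpi1 called over both times in 9 of them (0.435 to 0.598) and Hk1 at 72h in 7 (0.644 to 0.854). Scaling by totals called Pfkl, Pgam1 and Pkm over both times and at 72h, Hk2 at 72h and Tpi1 at 24h. Offsets for gene length and GC called Pfkp lower at 24h (-0.719, edgeR adjusted p = 0.0379). Of the 14 tested enzymes, 4 were thus called higher at 72h (28.6%, against 8.06% of all genes), and the calls of Gpi1 and Eno1 were each lost in 7 of 26 alternatives. Ldha and Pgk1 stood near 0 at 72h (0.09 and -0.07).

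Flux control and transport held 5 members, of which only Pdk1 was called. Pdk1 encodes a kinase that keeps pyruvate out of mitochondria by switching off pyruvate dehydrogenase. Its CPM at 24h was 3.90, 2.87, 2.29 and 0.818 in green cells, from 2 to 9 counts, and 6.76, 7.91, 5.62 and 5.75 in red cells. The 72h libraries had 5.48, 5.19, 4.13 and 4.16 in green and 6.50, 4.97, 3.18 and 5.73 in red cells. Colours were fully apart at 24h and overlapped at 72h. The 24h log2 fold change was 1.45 (SE 0.368, edgeR adjusted p = 0.0114), and 0.80 over both times (SE 0.241, edgeR adjusted p = 0.0168). At 72h it was 0.15 (edgeR adjusted p = 0.802), yet the change with time was not called (-1.30, edgeR adjusted p = 0.181). Per kb, Pdk1 was 13.2 ± 7.98% of the 4 kinases of its family in green and 37.4 ± 5.33% in red cells at 24h, and 24.4 ± 6.38% and 22.3 ± 5.56% at 72h. Pdk3 was the larger in each group per kb, but by CPM Pdk1 led in red cells at 24h, with 58.9% against 39.3%. Slc2a1, the main glucose transporter, differed by 0.05 over both times (edgeR adjusted p = 0.865). Slc16a3, a lactate exporter, was not called, nor were Pfkfb3 and Pfkfb4, which set the level of a regulatory fructose bisphosphate, not the aldolase substrate. With offsets for gene length and GC, Slc16a3 and Pfkfb4 were called lower over both times (-0.527 and -0.663, edgeR adjusted p = 0.00716 and 0.0189), and so was Slc16a3 at 72h (-0.568, edgeR adjusted p = 0.0499). Scaled by totals, Pfkfb3 was called higher over both times and at 72h (0.439 and 0.692, edgeR adjusted p = 0.0383 and 0.0239).

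None of the 3 oxygen sensing members was called in the fit described. Hif1a encodes the oxygen-controlled subunit of the factor. At 24h its CPM was 80.9, 102, 83.3 and 82.6 in green and 72.8, 76.3, 56.8 and 47.2 in red cells. Those of 72h stood at 72.7, 63.5, 69.6 and 68.9 in green and 84, 81.4, 86.1 and 82.1 in red cells. The colours did not overlap at either time, with green cells the higher at 24h and red cells the higher at 72h. The log2 fold change was -0.46 at 24h (edgeR adjusted p = 0.127) and 0.28 at 72h (edgeR adjusted p = 0.314), which turned to -0.06 with the Rn45s covariate. For the change with time, 0.74, the adjusted p was 0.148 by edgeR and 0.0121 by DESeq2. Hif1a was called lower at 24h by DESeq2 (-0.475, adjusted p = 0.0189) and by edgeR with offsets for gene length and GC (-0.596, adjusted p = 0.0344). Egln1, a hydroxylase that marks the factor for decay, stood at 0.51 over both times (edgeR adjusted p = 0.138), and Egln3, of the same family, was not called. Egln1 was called higher by totals over both times (0.716, edgeR adjusted p = 0.0269) and at 72h (0.985, 0.0362), at 72h without the filter (0.946, 0.0365), and over both times without green 24h replicate 2 (0.767, 0.0181).

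**Figure D3:**
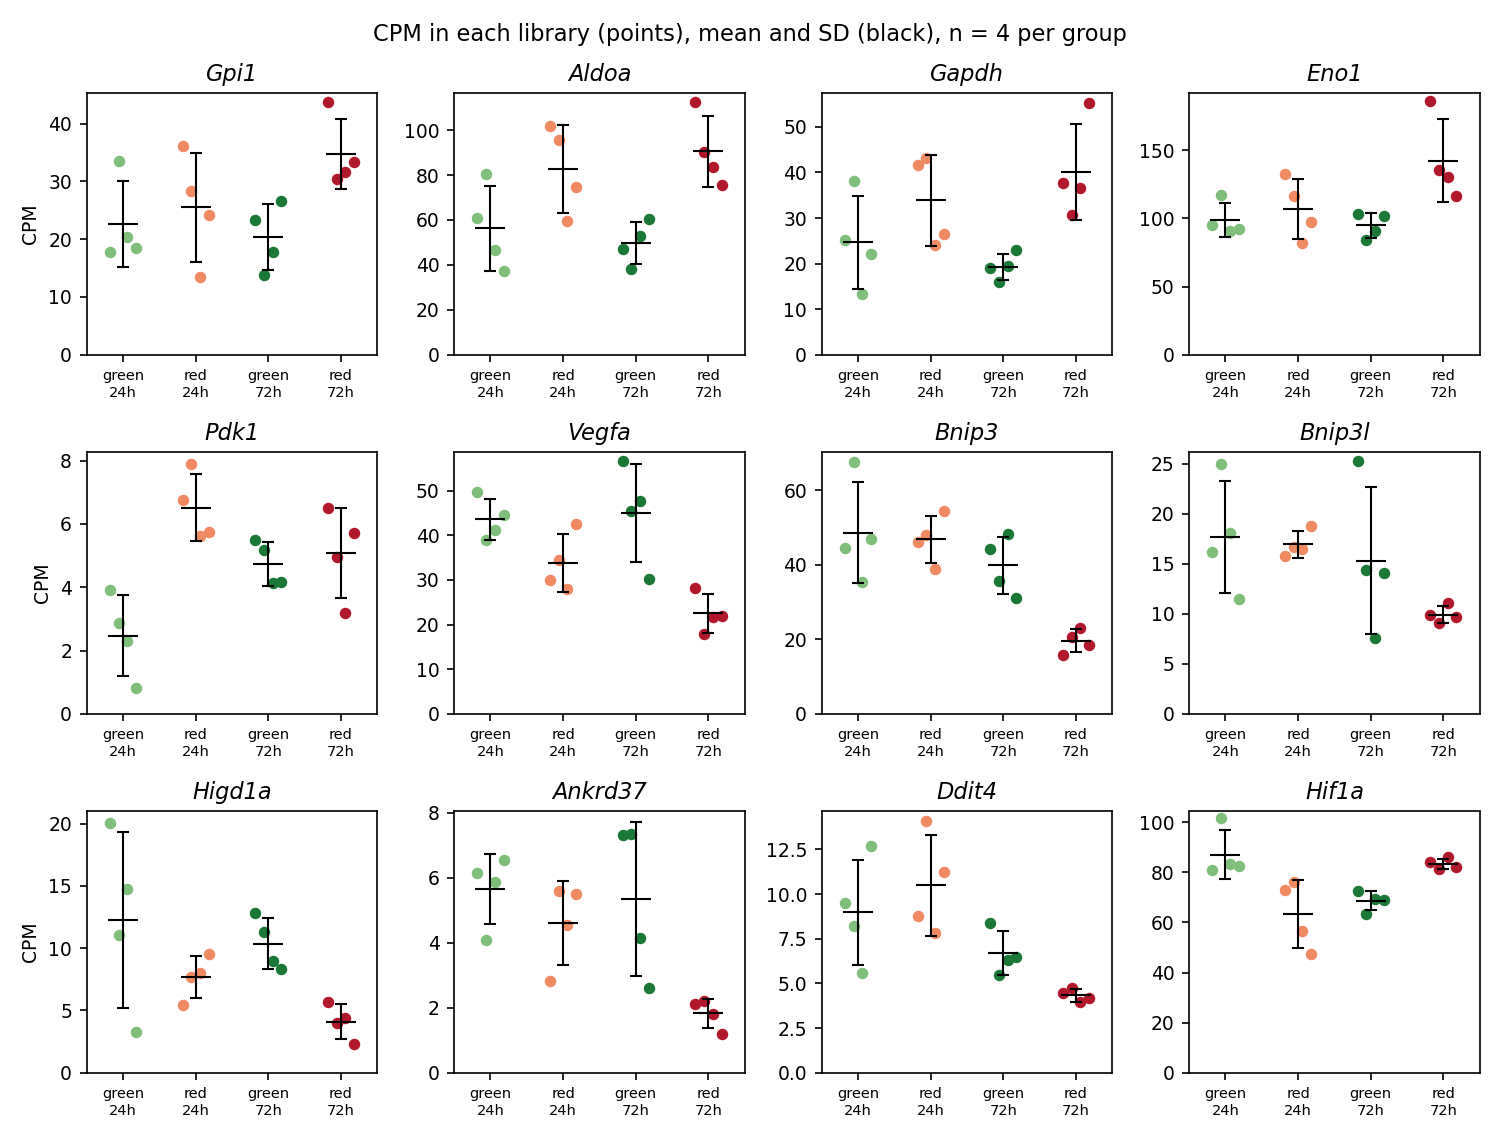
CPM of selected members in each of the 16 libraries, by colour and time.

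Of the 3 mitochondrial members, Bnip3 and Higd1a were called lower in red cells at 72h and over both times, and none was called at 24h. Bnip3, which brings mitochondria to autophagosomes, stood at 44.6, 67.6, 35.4 and 47 CPM in green and 46.1, 47.9, 39 and 54.3 in red cells at 24h. At 72h it stood at 44.2, 35.7, 48.2 and 31.2 in green and 15.9, 20.7, 23.1 and 18.6 in red cells. The 24h ranges lay over each other, and the 72h red libraries were the lowest 4 of all 16. At 72h Bnip3 fell by 1.03 on the log2 scale in red cells (SE 0.207, edgeR adjusted p = 0.000574), and at 24h the value was -0.05 (edgeR adjusted p = 0.934). From 24h to 72h in red cells it fell by 1.27 (SE 0.203, edgeR adjusted p = 0.000458), which remained a call with the Rn45s covariate. The change of the colour difference with time was -0.985 without a call in the fit described (SE 0.292, edgeR adjusted p = 0.0836). It was called by DESeq2 (-1.01, adjusted p = 0.0102) and by edgeR with at least 10 counts in every library (-1.096, adjusted p = 0.0272). Over both times the value was -0.54 (SE 0.146, edgeR adjusted p = 0.00763), a call that was lost when scaled by totals (-0.342, adjusted p = 0.0848) or without the expression filter (-0.423, 0.0677). Those settings moved the median of all genes by 0.204 and 0.118, and relative to it Bnip3 stood at -0.546 and -0.541, as before.

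The ratio of Bnip3 to Aldoa within a library needs no scaling between libraries, and the pair was chosen after its values were seen. Bnip3 counts per 100 Aldoa counts were 89.9 ± 24.5 in green and 58.5 ± 13 in red cells at 24h. At 72h they were 82.5 ± 20.6 and 22.3 ± 5.83. The 72h red libraries, at 14.1 to 27.7, lay below all 12 others, at 45.2 to 126. The colours did not overlap at 24h by a narrow margin only (72.9 and 73.4), where neither gene was called in the fit described, while at 72h Bnip3 was called lower and Aldoa higher.

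**Figure D4:**
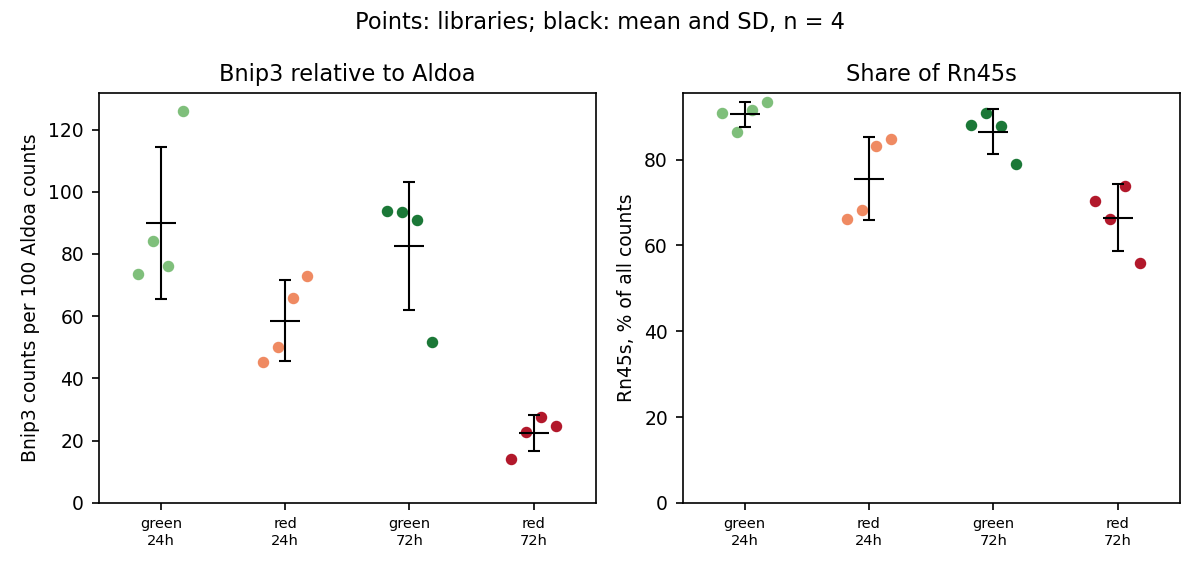
Bnip3 counts per 100 Aldoa counts and the Rn45s share in each library, by colour and time.

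Bnip3l, a second mitophagy receptor, was called between the times and not between the colours, except at 72h without green 72h replicate 3 (-0.865, edgeR adjusted p = 0.0183). Red libraries stood at 15.7, 16.7, 16.5 and 18.8 CPM at 24h and at 9.86, 9.05, 11 and 9.62 at 72h. Green libraries stood at 16.2, 25, 18.1 and 11.4 at 24h and 25.2, 14.3, 7.54 and 14 at 72h. Red cells at 72h were below red cells at 24h without overlap, and green libraries spread over both ranges. The fall in red cells of -0.785 (SE 0.242, edgeR adjusted p = 0.0384) was not called once any 1 of the 8 red libraries was left out (adjusted p from 0.0509 without red 24h replicate 1 to 0.126 without red 24h replicate 4). It was also lost without the filter (0.0666), with thinned counts (0.0523), with the Rn45s covariate (0.18) and with offsets (0.1), 12 of 26 alternatives in all. The log2 fold change kept about its size throughout, from -0.852 to -0.655 over the 26.

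Higd1a encodes a mitochondrial inner membrane protein induced by low oxygen. Its 24h values were 20.1, 11.1, 14.8 and 3.27 CPM in green and 5.45, 7.66, 7.98 and 9.56 in red cells. At 72h they were 12.8, 11.3, 9.0 and 8.32 and 5.68, 3.98, 4.39 and 2.27 in the same order. Green replicate 4 at 24h lay below all red libraries of that time, and at 72h the colours were apart. In red cells Higd1a fell by 1.01 over both times (log2, SE 0.236, edgeR adjusted p = 0.00214) and by 1.35 at 72h (SE 0.333, edgeR adjusted p = 0.00416). At 24h the value was -0.66 without a call (edgeR adjusted p = 0.258), and without green 24h replicate 4 it was called (-0.987, edgeR adjusted p = 0.0319). The fall with time in red cells, -0.93 (edgeR adjusted p = 0.0598), was called in 9 alternatives (-1.083 to -0.851). Counts were low, from 8 to 158 per library.

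Vegfa, the vessel growth factor, was the secreted member that differed. It stood at 49.6, 38.9, 41.3 and 44.6 CPM in green and 30, 34.4, 27.9 and 42.6 in red cells at 24h. At 72h it stood at 56.7, 45.5, 47.7 and 30.2 in green and 28.3, 17.9, 21.8 and 22 in red cells. Red libraries were the lower at both times, fully so at 72h, and overlapped with 2 of 4 green libraries at 24h. In red cells Vegfa fell by 0.68 over both times (log2, SE 0.146, edgeR adjusted p = 0.000838) and by 0.996 at 72h (SE 0.205, edgeR adjusted p = 0.000765). The fall with time in red cells, -0.59 (edgeR adjusted p = 0.062), was called in 8 alternatives (-0.746 to -0.585). Mif, a cytokine released by macrophages, was not called and stood at 0.29 at 72h (edgeR adjusted p = 0.484). With offsets for gene length and GC it was called higher, at 1.02 at 72h (edgeR adjusted p = 0.00917) and 0.645 over both times (0.0171).

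Among stress and growth genes, Ankrd37, an ankyrin repeat protein and direct target of the factor, was lower in red cells. Its CPM at 24h was 6.13, 4.10, 5.86 and 6.54 in green and 2.81, 5.59, 4.54 and 5.49 in red cells. At 72h it was 7.31, 7.33, 4.13 and 2.60 in green and 2.11, 2.19, 1.81 and 1.20 in red cells, from 10 to 87 counts per library. The colours overlapped at 24h and were apart at 72h, where red cells held the lowest 4 values of the 16. Ankrd37 fell by 0.905 over both times (log2, SE 0.253, edgeR adjusted p = 0.00961) and by 1.52 at 72h (SE 0.356, edgeR adjusted p = 0.00274). In red cells from 24h to 72h it fell by 1.33 (SE 0.328, edgeR adjusted p = 0.0104), a call lost without red 24h replicate 4 (adjusted p = 0.0567) or red 72h replicate 4 (0.0604), with the Rn45s covariate (-0.93, 0.208) and with offsets for gene length and GC (-1.009, 0.0679). With those offsets, the value over both times was -0.646 without a call (adjusted p = 0.072). Its exons overlap those of Lrp2bp and Ufsp2 by 186 and 57 bases on the opposite strand. Other members also share exon bases with a gene on the opposite strand. Among them are Pfkp (748 with Pitrm1), Higd1a (683), Bnip3 (504), Ndrg1 (419), Gpi1 (356) and Hif1a (330). Lrp2bp, Ufsp2 and Pitrm1 were among the counted genes, and the partners of Higd1a, Bnip3, Ndrg1, Gpi1 and Hif1a were not. Whether strand was used in counting was not given.

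Ddit4, which restrains mTOR under stress, changed with time in red cells. These libraries stood at 8.78, 14.1, 7.80 and 11.2 CPM at 24h and at 4.46, 4.71, 3.93 and 4.19 at 72h. Green libraries stood at 9.48, 8.19, 5.61 and 12.7 at 24h and 8.41, 5.50, 6.32 and 6.50 at 72h. The 72h red values were the lowest 4 of all. From 24h to 72h in red cells Ddit4 fell by 1.27 on the log2 scale (SE 0.245, edgeR adjusted p = 0.00196), which also remained a call with the Rn45s covariate. Ndrg1, a stress-induced differentiation gene, stood at 0.46 over both times (edgeR adjusted p = 0.0737) and was called higher in 5 alternatives (0.516 to 0.662). Ero1l, an oxidase of the endoplasmic reticulum, and Mxi1, an antagonist of Myc, were not called. Ero1l was higher over both times by totals (0.517, edgeR adjusted p = 0.0381) or without green 24h replicate 1 (0.508, 0.0358), and lower with time in a fit of only the red groups (-0.501, 0.0435). No call was made either for P4ha1 and P4ha2, which hydroxylate collagen, and for the histone demethylase Kdm3a, although P4ha2 stood at -1.50 at 72h (edgeR adjusted p = 0.0532) and was called lower there with RLE factors (0.0465), without the filter (0.0446), with only the groups compared (0.00855), with thinned counts (0.0398) and with offsets (0.0326). It was likewise called at 72h without green 24h replicate 2 (edgeR adjusted p = 0.0441), green 24h replicate 4 (0.0328), red 24h replicate 1 (0.0321) or red 24h replicate 4 (0.0348).

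Between the times, the 2 colours differed in how many genes were called. From 24h to 72h in red cells, 4 members were called lower (11.4%, against 3.76% of all genes): Bnip3, Bnip3l, Ankrd37 and Ddit4. Without 1 library this count ran from 2 (red 24h replicate 4 or red 72h replicate 4) to 6. No member was called higher in edgeR's quasi-likelihood test, against 4.92% of all genes, where 6 had unadjusted p under 0.05 and DESeq2 called 2, and 1 was called without green 24h replicate 4 or without red 24h replicate 1. Libraries of the 2 times did not overlap for 5 members higher and 5 lower (14.3% each, against 11.8% and 8.76%). The 5 higher were Hk1, Hk2, Pfkp, Pkm and Hif1a, and the 5 lower were Bnip3, Bnip3l, Ankrd37, Ero1l and Ddit4. In 4 alternatives each, Hk1 (0.601 to 0.668) and Pkm (0.497 to 0.566) were called higher. Pfkp was called higher in 2 (0.552 and 0.745) and Hk2 in 1 (0.478). In green cells edgeR called 0 members and 0.0% of all genes, with 2 members at unadjusted p under 0.05 and 0 called by DESeq2. There the times did not overlap for Pdk1, higher at 72h (2.86%, against 1.92%), and for Pgk1 and Hif1a, lower (5.71%, against 1.08%). Green cells had the larger standard errors (median 0.42, against 0.32 in red cells), so the absence of calls is not evidence of no change.

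For the change of the colour difference with time, edgeR called 0 members, against 0.757% of all genes. Unadjusted p was under 0.05 for 9 members, and DESeq2 called 2, Hif1a and Bnip3. The median standard error was 0.53, the widest of the 6 comparisons. With at least 10 counts in every library, edgeR called Bnip3 as well (-1.096, adjusted p = 0.0272). Apart from Bnip3 under those 2 settings, no member called at 72h and not at 24h had a call for a change with time under any setting.

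**Figure D5:**
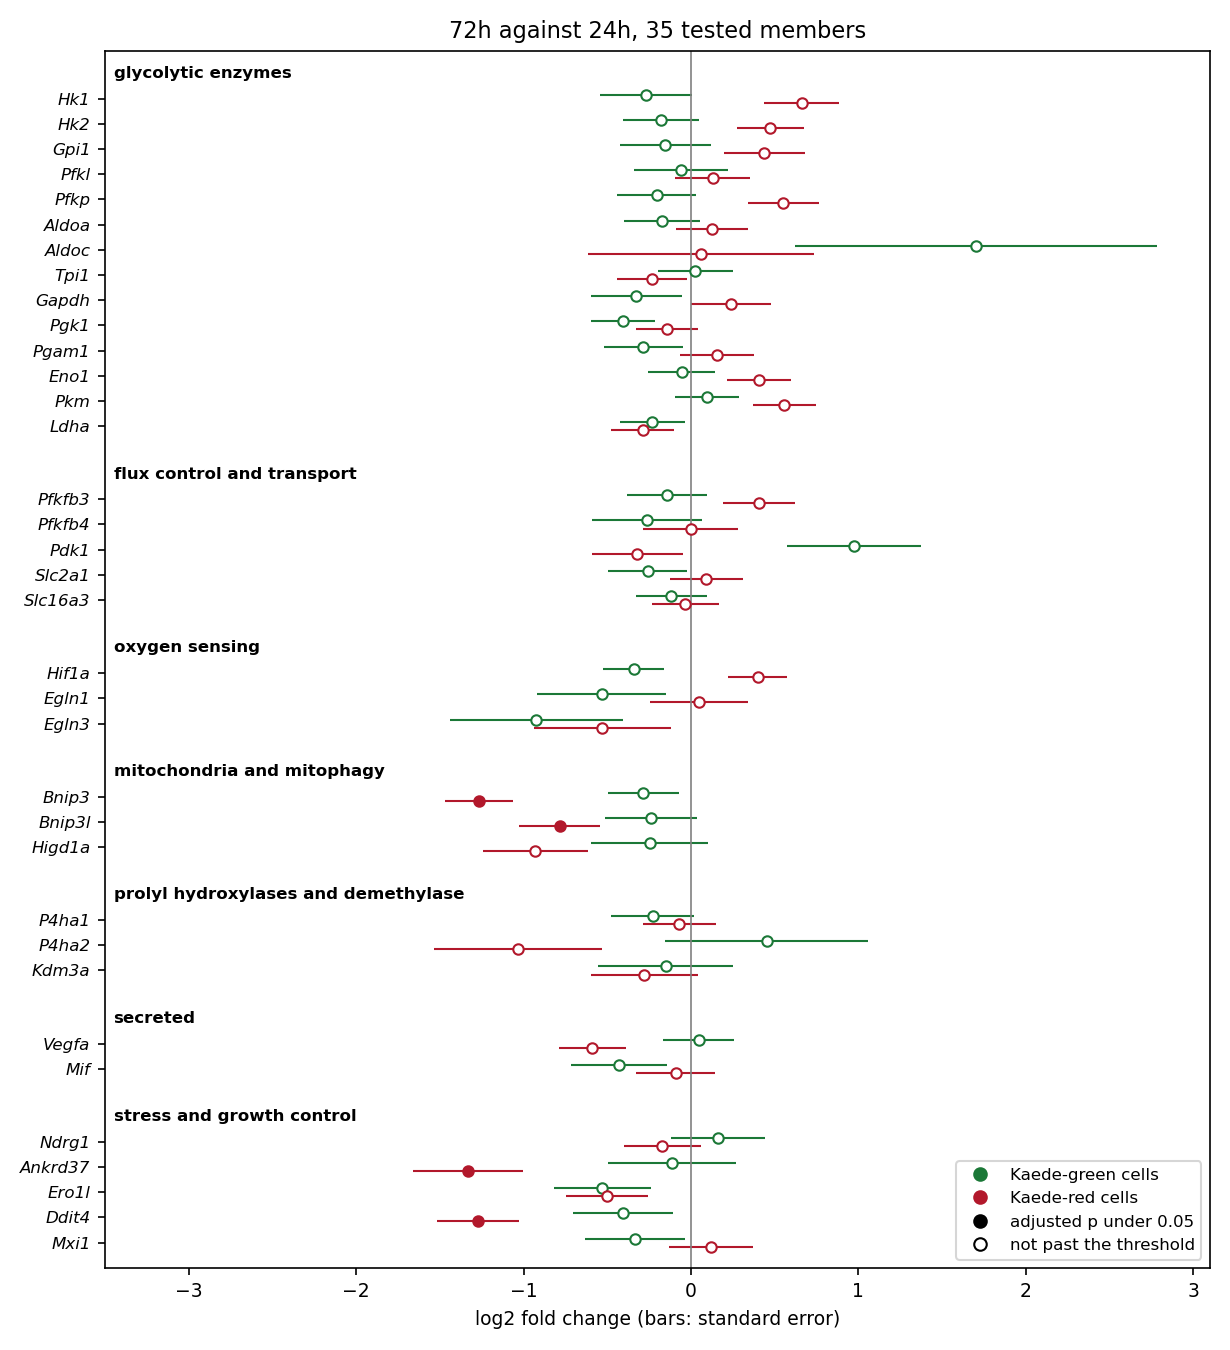
Log2 fold change from 24h to 72h of each tested member in green and in red cells, with standard errors.

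Other genes of the same pathways were read from fixed lists. Those named for other than a call over both times were chosen after their values were seen. Of 23 other glucose genes tested, 1 was called higher (4.35%, against 10% of all genes) and 3 lower (13%, against 10.3%) in red cells over both times. These shares are not a result about the list, and its called genes are given by name. Pdha1, a subunit of pyruvate dehydrogenase, was higher by 0.88 (log2, edgeR adjusted p = 0.00418). Mpc2 and Mpc1, the 2 subunits of the mitochondrial pyruvate carrier, stood at -1.20 and -1.06 (edgeR adjusted p = 3.05e-05 and 9.68e-05). Slc16a1, a lactate transporter, stood at -1.11 (edgeR adjusted p = 0.00141). Both carrier genes were thus lower, while Pdhb and Dlat, of the same complex as Pdha1, and the kinase gene Pdk3 were not called. At 72h the list had 2 genes called higher, Hk3 and Pdha1 (8.7%, against 8.06% of all genes), and 2 lower (8.7%, against 8.76%). At 24h it had 0 higher (against 3.22%) and 2 lower, Mpc1 and Mpc2 (8.7%, against 4.28%). Of 7 tested pentose phosphate genes, 2 were called higher over both times (28.6%, against 10% of all genes) and 1 lower (14.3%, against 10.3%). G6pdx and Pgd, which make NADPH, were higher by 0.84 and 0.63 (edgeR adjusted p = 0.0058 and 0.005), and Rpe, an epimerase, stood at -0.88 (edgeR adjusted p = 0.00281). At 72h these 2 and Tkt, a transketolase, were called higher (42.9%, against 8.06% of all genes), Tkt by 0.80 (edgeR adjusted p = 0.016), and Rpe was called lower (-1.242, edgeR adjusted p = 0.00268; 14.3%, against 8.76%). At 24h none was called higher (against 3.22%) and Taldo1, a transaldolase, was called lower (-0.783, edgeR adjusted p = 0.0338; 14.3%, against 4.28%). The list ran in both directions, with medians of 0.779 at 72h and -0.079 at 24h. Of 29 other oxygen and hypoxia genes tested, 3 were called higher over both times (10.3%, against 10% of all genes), of which 2 are named. Another 2 were called lower (6.9%, against 10.3%), and these shares are not a result about the list. Plod1, a lysyl hydroxylase, was higher by 1.23 and Hmox1, heme oxygenase, by 0.64 (edgeR adjusted p = 0.000724 and 0.0243). Ier3, a stress-response gene, and Nampt, of NAD synthesis, stood at -0.615 and -0.43 (edgeR adjusted p = 0.00839 and 0.0271). At 24h, 2 of this list were called higher (6.9%, against 3.22% of all genes) and 1 lower (3.45%, against 4.28%). At 72h, Plod1 was called higher (1.231, edgeR adjusted p = 0.0117) and Plod2 lower (-1.536, 0.0217), 3.45% each, against 8.06% and 8.76%. From 24h to 72h in red cells, 3 of this list were called lower (10.3%, against 3.76% of all genes) and 0 higher (against 4.92%). Of the 3, Plod2 and Fam162a fell by 1.67 and 1.48 (edgeR adjusted p = 0.0137 and 0.00118). Fam162a encodes a mitochondrial protein induced by low oxygen and Plod2 a second lysyl hydroxylase, and the list as a whole had a median of -0.125 there.

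Marker lists of other cells moved in part with these results. The 8 fibroblast markers, led by Col3a1, summed to 48.3 ± 6.41 and 29.9 ± 10.4 CPM in green and red cells at 24h, and to 51.0 ± 3.38 and 17.4 ± 3.22 at 72h. Col3a1, a collagen gene, fell by 1.63 on the log2 scale in red cells at 72h (edgeR adjusted p = 2.65e-05). Of the 5 tested, 4 were called lower in red cells at 72h. Their sum thus ran the same way as Bnip3, Vegfa, Ankrd37 and Higd1a at 72h. Dcn (0.53 CPM in green and 0.58 in red cells) and Lum (0.065 and 0.0844) were not lower there, on 100 and 13 counts in all. None of the 8 markers was at 0 in all libraries. The 6 markers of dividing cells summed to 42.4 ± 11.4, 41.9 ± 16.8, 42.8 ± 8.88 and 25.4 ± 3.45 CPM in green 24h, red 24h, green 72h and red 72h cells, lowest where Bnip3 and Ddit4 were lowest. Top2a was called lower in red cells at 72h (-0.863, edgeR adjusted p = 0.024). Cdk1 and Mki67 were called lower with time in red cells (-1.353 and -0.832, edgeR adjusted p = 0.0437 and 0.0474). Ccna2 ran the other way, at 1.49, 1.52, 1.23 and 1.93 CPM in the same order of groups. Red libraries at 24h were uneven in both lists, as in their Rn45s share, at 20.6, 21.2, 37.7 and 40.1 CPM for fibroblasts and 26.2, 28.9, 58.8 and 53.9 CPM for dividing cells in replicate order. The 6 erythroid markers split these libraries likewise, at 1.93, 2.31, 11.1 and 9.95 CPM. Replicates 1 and 2 also had the higher Aldoa and Hif1a of that group, and the labels name no cause. Erythroid markers also set red 72h replicate 3 apart, at 11.3 CPM against 0.0391 to 1.13 in the other red libraries at 72h. In green cells they averaged 7.03 CPM at 24h and 1.34 at 72h. The 6 endothelial markers, led by Kdr, summed to 14.3 ± 2.57, 21.2 ± 2.15, 14.2 ± 3.90 and 31.4 ± 5.88 CPM in the same order, a rise carried by Kdr and Pecam1. Over both times these 2 were higher by 1.06 and 1.02 in red cells, the direction of Aldoa and Gapdh (edgeR adjusted p = 1.77e-05 and 0.00308). Cdh5 was called in the other direction (-1.42, edgeR adjusted p = 0.0377), and Vwf, Tek and Cldn5 were too low to be tested. The CD45+ CD11b+ gate selects against fibroblasts and endothelial cells. Whether any of these that remained, erythroid cells or cells in division contributed to a member's difference was not tested.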

How the data were processed

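Per-gene read counts deposited by the authors were used as raw counts for all 16 libraries. According to the submitters' processing notes, reads were trimmed with Trim Galore, checked with FastQC, aligned to mm10 with HISAT2 and counted per gene with featureCounts, with versions and counting options not given there. Differences were tested with edgeR 4.0.16 in R 4.3.3, in 1 fit of the 16 libraries with 1 mean per group, TMM factors, filterByExpr defaults and the quasi-likelihood test (common dispersion 0.0702). Benjamini-Hochberg adjustment ran over all 9642 genes tested, and genes with adjusted p under 0.05 were called. CPM used TMM effective library sizes. Rn45s shares and counts outside Rn45s were compared with an exact permutation test that relabelled colours within times. Median standard errors were 0.27 over both times, 0.39 at 24h, 0.36 at 72h, 0.42 and 0.32 between times in Kaede-green and Kaede-red cells, and 0.53 for the change with time.

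Exon lengths, GC and positions came from the GENCODE annotation of GRCm38, and promoters from RefSeq. Promoter entries were found for 35 members, Ero1l under its newer symbol Ero1a, and none for Bnip3l or Ndrg1. Tested members had a median exon length of 3030 bases and GC of 51.87%, against 3356 and 49.21% for all genes. The members and the gene lists were chosen with earlier results of these data known. Comparisons, tests and the naming rule were written down before the count files were read. That rule gave values in every library to members called over both times without overlap of the colours, or called for the change with time. From a pathway list it named at most 3 called genes in each direction, by absolute log2 fold change over both times. The results of 1 gene of these lists are not reported here. Genes named outside that naming rule were chosen after their values were seen. From the pathway lists these include Tkt, Taldo1, Plod2, Fam162a, Hk3, Pdhb, Dlat and Pdk3.

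Alternatives tried were the DESeq2 1.42.0 Wald test, RLE factors, totals outside Rn45s, Lars2 and Mir6236, no filter, at least 10 counts in every library, only the groups compared, a replicate block, thinned Kaede-red counts, the Rn45s share as a covariate, offsets for gene length and GC, and each library left out.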

Additional observations from a re-analysis of the deposited data

Results flagged for a closer look

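Within groups of 4 libraries, Dixon's ratio was read for 64 groups of values, a check that by chance picks out about 1 in 20 groups. Kaede-green 24h replicate 2 stood apart for 3 members: Gpi1 at 33.6 CPM against 17.8 to 20.4 in the other 3 libraries, Eno1 at 117 CPM against 90.5 to 94.8, and Hif1a at 102 CPM against 80.9 to 83.3. In Kaede-green 72h replicate 4, Bnip3 counts per 100 Aldoa counts were 51.7 against 90.8 to 93.8. Members made up 0.939% of counts outside the ribosomal genes in Kaede-green 72h replicate 1, against 0.715 to 0.719%, and 1.23% in Kaede-red 72h replicate 1, against 0.967 to 0.987%.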

How the results depend on the processing

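The 20 member calls had 509 values under the alternatives, of which 462 kept the call and 508 the direction. Gapdh over both times turned to -0.011 with the Rn45s share as a covariate, and Hif1a at 72h, not called, to -0.064. The cause was not tested. That covariate left 0 members called higher and 0 lower over both times, 0 higher at 24h, 0 and 0 at 72h, and 2 lower from 24h to 72h in Kaede-red cells. Over both times, members called higher were 13 when scaled by totals and 7 without the filter or with at least 10 counts in every library. These fits tested different numbers of genes, and called 1920 of 9642, 1231 of 21040 and 640 of 3084 genes higher, in that order. At 24h, 4 were higher by totals (700 of 9642 genes) and 2 with at least 10 counts (262 of 3084). There DESeq2 called 1 lower (534 of 21040) and the length and GC offsets 2 (581 of 9585). At 72h, 11 were higher by totals (1319 of 9642 genes), 8 without the filter (1039 of 21040) and 7 with at least 10 counts (633 of 3084). In Kaede-red cells with time, DESeq2 and at least 10 counts each called 2 higher (599 of 21040 and 465 of 3084 genes). A fit of only the groups compared called 4 higher and 7 lower there (890 and 714 of 10080 genes). The change with time had 2 members under DESeq2 (343 of 21040 genes) and 1 with at least 10 counts (156 of 3084). With 1 library left out, counts higher and lower ran from 3 to 7 and 4 to 5 over both times, 1 to 2 and 0 to 1 at 24h, 2 to 5 and 4 to 5 at 72h, and 0 to 1 and 2 to 6 in Kaede-red cells with time. Libraries with the same number correlated at 0.0493 to 0.153 at 24h and at -0.0183 to 0.0287 at 72h. Those with different numbers ran from -0.132 to 0.147 and from -0.0556 to 0.0596. At 24h, Kaede-green replicates 1 and 2 correlated positively with Kaede-red replicates 1 and 2 and negatively with 3 and 4. Kaede-green replicates 3 and 4 did the reverse, and the cause was not tested. The labels name no animal, so numbers were not taken as pairs. A replicate block called 1 member higher and 6 lower in Kaede-red cells with time (501 and 376 of 9642 genes). It left the other member counts as they were. Of all genes, the covariate called 51 higher and 105 lower over both times (969 and 990 without it), 88 and 118 at 24h (310 and 413), 26 and 75 at 72h (777 and 845), 77 and 33 in Kaede-red cells with time (474 and 363), and 34 for the change with time (73). Totals called 1920 and 621 over both times, 700 and 242 at 24h, and 1319 higher at 72h. At least 10 counts called 640 of the 3084 genes it tested higher over both times and 156 for the change with time. Only the groups compared called 181 higher at 24h, and 890 higher and 714 lower in Kaede-red cells with time. There, thinning called 307 higher, offsets 268 and 190, and DESeq2 591 lower. In Kaede-green cells with time, DESeq2 called 13 and no filter 37, against 0. The change with time had 343 under DESeq2, 216 without the filter and 33 with thinning, and offsets gave 73 higher and 19 lower against 41 and 32. With 1 library left out, genes called higher fell to 194 at 24h and 517 at 72h at the lowest, and all calls ran from 280 to 1108 in Kaede-red cells with time (837), 0 to 2 in Kaede-green cells, and 2 to 155 for the change with time. Offsets split all genes 685 higher and 1102 lower over both times, and the ACGTG motif alone marked 74.3% of members against 94.3% with GCGTG.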

Other observations

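Several steps of glycolysis are shared by isozymes, and their shares within each family, per kb of exon, describe which form led among the transcripts. Hk3, the hexokinase of myeloid cells, held 50.5, 46.7, 45.2 and 47.6% of the hexokinases in Kaede-green 24h, Kaede-red 24h, Kaede-green 72h and Kaede-red 72h cells. Without the division by length Hk2 was the larger, with 40.8, 43.5, 44.3 and 41.5% against 39.1, 35.6, 34.2 and 36.5% for Hk3, so the order of the 2 depends on that choice. Pfkp, the platelet phosphofructokinase, held 64.6 ± 4.99% at 24h where cells were green and 49.9 ± 6.27% where they were red, and 60.5 ± 4.21% and 57.7 ± 4.85% at 72h. Aldoa made up 98.5 to 99.4% of the aldolases and Ldha 95.6 to 98.4% of the lactate dehydrogenases in group means, which left little room for a second form. Slc2a1 made up 88.2 to 93.6% of the 4 glucose transporters read.

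Pfkfb3, the form that favours glycolysis, made up 58.5 ± 9.68, 63.7 ± 6.43, 62.2 ± 5.70 and 73.1 ± 4.01% of its family in the same order of groups. Egln1 held 35.9 ± 16.7, 39.6 ± 7.34, 29.2 ± 13.6 and 42.4 ± 7.45% of the 3 oxygen-sensing hydroxylases, with the widest spread in Kaede-green cells. These families were chosen after values of their members were seen, and their shares were not compared by a test.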
